A study of Mus musculus with 28 samples.

Results

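The genes described here encode the proteasome: its subunits, its activators and the factors that assemble or inhibit it. They were chosen by symbol, as all genes named Psm with a letter from a to g and a number, after each probe's RefSeq accession was matched to a symbol. The choice found 48 genes on 59 probes, out of 37074 gene names on the array. The livers came from 6 male B6C3F1 mice with an age label of 42 days, and had been kept in paraffin after formalin fixation for 16 years. Of these mice, 3 drank water with 0.05% phenobarbital for about 4 weeks and 3 were untreated controls. Phenobarbital, an anticonvulsant drug, switches on drug-metabolising genes in hepatocytes through the nuclear receptor CAR. The RNA of every mouse was amplified to cDNA and hybridised in 4 sets of Agilent mouse arrays, 1 slide each: 6 one-colour arrays with the standard (1X) amount of cDNA, 6 with 1.5X, and 8 two-colour arrays with each of these amounts. The replicate is the mouse, 3 per group in each comparison, and this number limits the precision. The p-values measure the spread between these mice.

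The proteasome is the barrel-shaped protease that degrades ubiquitin-tagged proteins. Its core is built of outer rings of alpha subunits and inner rings of beta subunits, of which Psmb5, Psmb6 and Psmb7 carry the proteolytic sites. In immune cells, and in other cells exposed to interferon gamma, newly made cores take up Psmb8, Psmb9 and Psmb10 in their place and form the immunoproteasome, which favours peptides that fit MHC class I molecules. A cap called the 19S regulatory particle, with ATPase subunits (the Psmc genes) and non-ATPase subunits (most Psmd genes), recognises, unfolds and feeds in the substrate. Other activators (the Psme genes) can replace this cap, and the Psmg genes, Psmd5, Psmd9 and Psmd10 encode chaperones that leave before the particle is complete. Hepatocytes carry mostly constitutive cores, while macrophages and lymphocytes of the liver are rich in immunoproteasomes.

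Promoter sequence was at hand for 40 of the 48 genes, as RefSeq windows of assembly GRCm38.p6 from 250 bases before to 50 after the transcription start. Psmb8 and Psmb9 are shown because they sit close together in the MHC region of chromosome 17 with Tap1 between them, and encode immunoproteasome subunits whose values are described in detail. Each line gives the 250 bases before the start, 5′ to 3′ on the gene's strand, with a match to the gamma-activated site in capitals. That site, TTCNNNGAA, is an element found in promoters of genes induced by interferon gamma. The Psmb8 window is chr17:34197945-34198194 on the plus strand and the Psmb9 window chr17:34187331-34187580 on the minus strand.
Psmb8: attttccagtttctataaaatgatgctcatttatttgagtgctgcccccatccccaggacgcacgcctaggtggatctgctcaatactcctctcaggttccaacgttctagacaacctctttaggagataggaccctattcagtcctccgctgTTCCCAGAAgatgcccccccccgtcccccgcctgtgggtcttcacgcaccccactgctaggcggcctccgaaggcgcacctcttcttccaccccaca
Psmb9: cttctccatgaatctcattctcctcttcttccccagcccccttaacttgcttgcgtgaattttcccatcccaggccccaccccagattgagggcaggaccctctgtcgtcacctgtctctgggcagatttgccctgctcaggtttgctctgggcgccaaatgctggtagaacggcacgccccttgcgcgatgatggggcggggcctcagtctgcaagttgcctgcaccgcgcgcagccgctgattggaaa

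The letters were searched on both strands of the whole windows. TTCNNNGAA occurred in 3 of the 43 windows of proteasome genes (6.98%), those of Psmb8, Psmd2 and Psmg1, and in 8.3% of all 32851 windows. The interferon-stimulated response element, GAAA then NN then GAAA, bound by interferon regulatory factors, occurred in 5 (11.6%, against 3.44% of all windows): Psmb3, Psmd4, Psmd9, Psme1 and Psmg4. The antioxidant response element TGACNNNGC is bound by NRF1 and NRF2, and NRF1 (Nfe2l1) is the factor known to raise proteasome genes when proteasomes are inhibited. It occurred in 6 (14%, against 12.4%). Its matches in the catalytic genes Psmb5 and Psmb6 and in the 19S gene Psmd12 are shown, in capitals, with the bases around them: chr14:54618024-54618052 on the minus strand for Psmb5, chr11:70525338-70525366 on the plus strand for Psmb6 and chr11:107479278-107479299 on the plus strand for Psmd12. A match describes these letters only.
Psmb5: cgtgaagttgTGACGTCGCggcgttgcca
Psmb6: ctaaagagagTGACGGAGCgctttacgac
Psmd12: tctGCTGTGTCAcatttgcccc

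Most proteasome genes gave a signal in the archival RNA. On the one-colour arrays 42 to 43 of the 48 genes were called well above background at 1X and 40 to 44 at 1.5X. Over all arrays of these sets that was 89.2% and 89.9% of proteasome calls, against 48% and 32.9% for all probes. On two-colour arrays, Cy3 showed 35 to 44 genes at 1X and 41 to 42 at 1.5X. The Cy5 channel showed 27 to 38 at 1X and only 6 to 15 at 1.5X, where 33 genes were above background on no Cy5 array. No array showed Psma8 or Psmb11, the core subunits restricted to testis and to thymic cortex, nor the 19S subunit Psmd13 or the chaperone Psmg4. No proteasome spot was saturated.

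Two-colour 1X arrays 4 and 8 stand outside the comparisons because their labels give the exposures opposite dyes. On other arrays of that set the labels disagree on mouse numbers, and the two-colour 1X results below use the numbers of the description. The exposure itself was clear: Cyp2b10, the classic target of the phenobarbital-activated receptor, was well above background on 6 of 6 one-colour arrays of exposed mice and on 0 of 6 of controls, a level at least 23.8-fold higher over both inputs. All 9 hepatocyte markers measured were above background on all 12 one-colour arrays. All 10 pancreas markers gave a signal on at least 1 array, and their summed level ran from 125 to 472 times the array's 75th percentile in controls and from 82.8 to 467 in exposed mice. Their part in the proteasome values was not tested.

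Levels below are log2 signals relative to the 75th percentile of each array, so that 0 is the level of a fairly bright probe and negative values are dimmer. The array of a mouse at 1X and that at 1.5X were averaged. Because probes differ in how brightly they bind, a level is compared between mice and never between genes. In whole liver RNA fewer cells of a type and less RNA per cell cannot be told apart.

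No proteasome gene differed between phenobarbital and control livers past the threshold, an adjusted p of 0.05 in limma. Over both one-colour inputs 0 of 42 proteasome genes tested passed, where 0.749% of the 12813 genes tested passed. At an unadjusted p under 0.05 there were 2, against 13.5% of all genes. The groups did not overlap for 6 of the 42, against 19% of all genes. The median difference was 0.02 on the log2 scale for proteasome genes and -0.02 for all genes. The differences were also small: 1 of 42 (2.38%) was beyond 1.5-fold in either direction, against 10.8% of all genes. The precision bounds what could have been missed. The 95% intervals of 39 of the 42 lay within 2-fold either way, and those of 21 within 1.5-fold.

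**Figure D1:**
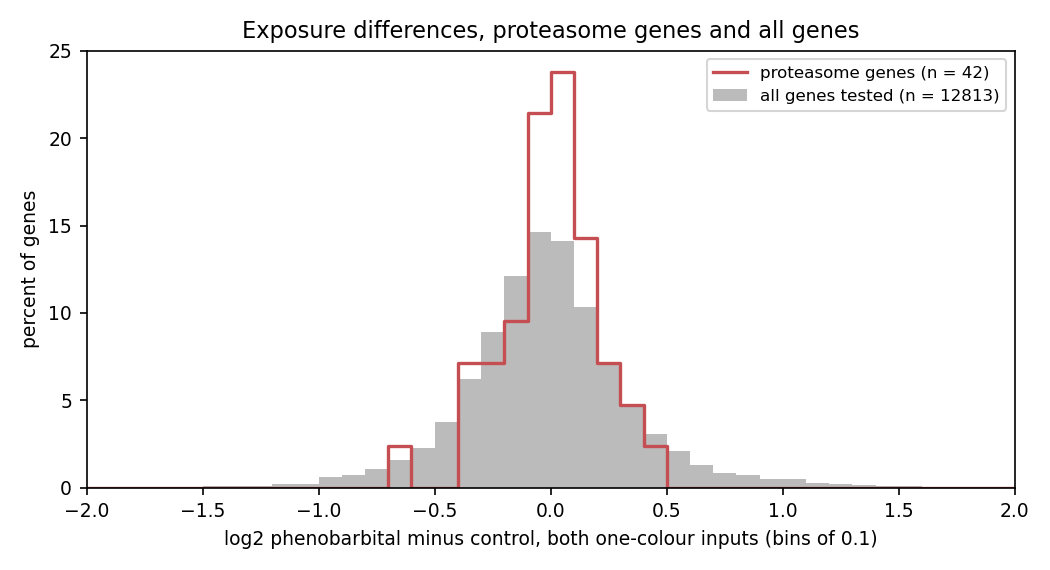
Histogram of log2 differences, phenobarbital minus control, over both one-colour inputs, as percent of genes in bins of 0.1: grey bars for all 12813 genes tested, red outline for the 42 proteasome genes, with differences beyond 2 in either direction not drawn. The proteasome genes lie between -0.64 (Psmb1) and 0.49 (Psmb8).

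By class, 5 of the 13 core genes tested had a difference above 0 and their median was -0.03. The 3 immunoproteasome genes had a median of 0.07. Of the 16 genes of the 19S cap tested, 12 had a difference above 0, with a median of 0.13. Of the 4 activators 1 was above 0 (median -0.10), and of the 6 assembly factors and the inhibitor tested 2 were (median -0.11). None of these classes held a gene past the threshold.

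**Figure D2:**
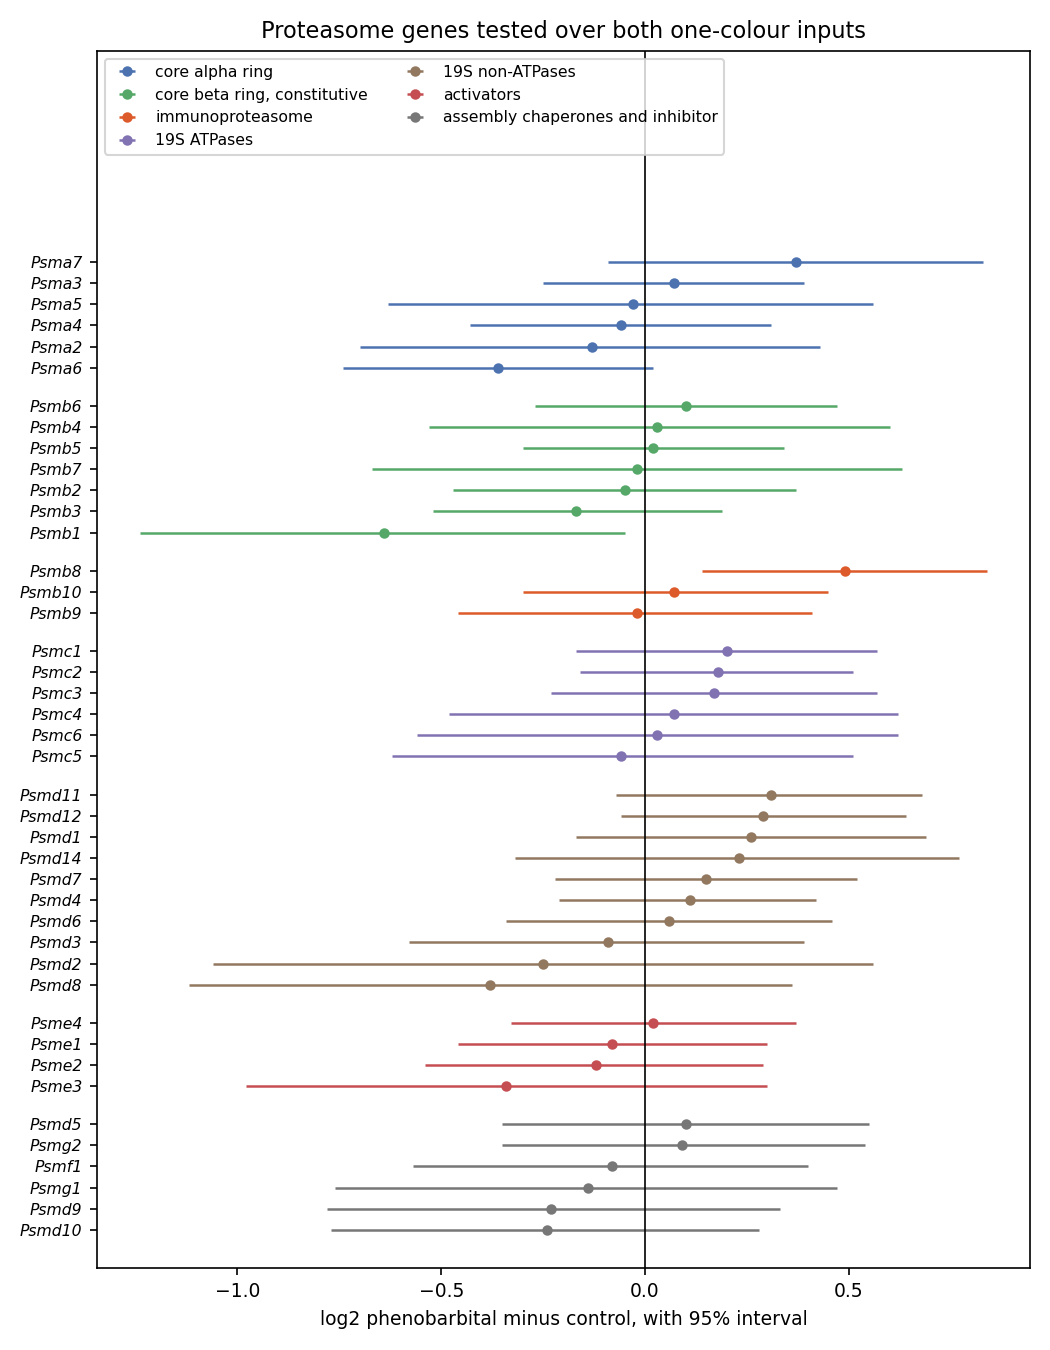
Log2 difference, phenobarbital minus control, of each of the 42 proteasome genes tested over both one-colour inputs (point) with its 95% interval from limma (line), coloured by class and sorted within it; n = 3 mice per group. Only the intervals of Psmb8 (0.14 to 0.84) and Psmb1 (-1.24 to -0.05) leave out 0, before any adjustment for the number of genes.

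Psmb8 (LMP7), the immunoproteasome subunit with chymotrypsin-like activity, had the largest positive difference of all proteasome genes over both inputs. Its log2 level was -1.29, -1.09 and -1.27 in the control mice and -0.57, -0.87 and -0.76 in the exposed mice. All exposed mice lay above all controls. The difference was 0.49 ± 0.15 (SE, n = 3 per group; limma adjusted p = 0.222, unadjusted 0.0124), so it did not pass. Psmb9 (LMP2), encoded near it, takes the place of the caspase-like Psmb6. Its levels were -1.84, -1.85 and -1.54 in controls and -1.46, -1.94 and -1.91 in exposed mice, with 1 mouse of each group standing higher than its group. The groups overlapped and the difference was -0.02 ± 0.19 (SE; adjusted p = 0.970). Psmb10 (MECL-1), the trypsin-like subunit, measured -0.75, -0.57 and -0.34 in controls and -0.41, -0.42 and -0.61 in exposed mice. These ranges overlapped too, with a difference of 0.07 ± 0.16 (SE; adjusted p = 0.880).

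By the probe used for each gene, the constitutive subunits that these replace had differences of at most 0.10 in size. A second, dimmer Psmb5 probe gave 0.25. Psmb5, the chymotrypsin-like subunit, stood at 3.62, 3.61 and 3.46 in controls and 3.60, 3.51 and 3.63 in exposed mice. Its difference was 0.02 ± 0.14 (SE; adjusted p = 0.966), with an interval from -0.30 to 0.34. Psmb6, the caspase-like subunit, stood at 3.84, 3.73 and 3.49 in controls and 3.66, 3.78 and 3.92 in exposed mice, a difference of 0.10 ± 0.16 (SE; adjusted p = 0.824). Psmb7, the trypsin-like subunit, was dimmer and more variable, from -3.17 to -2.25 in controls and from -3.12 to -2.43 in exposed mice. Its groups overlapped almost wholly and its difference was -0.02 ± 0.28 (SE; adjusted p = 0.981).

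**Figure D3:**
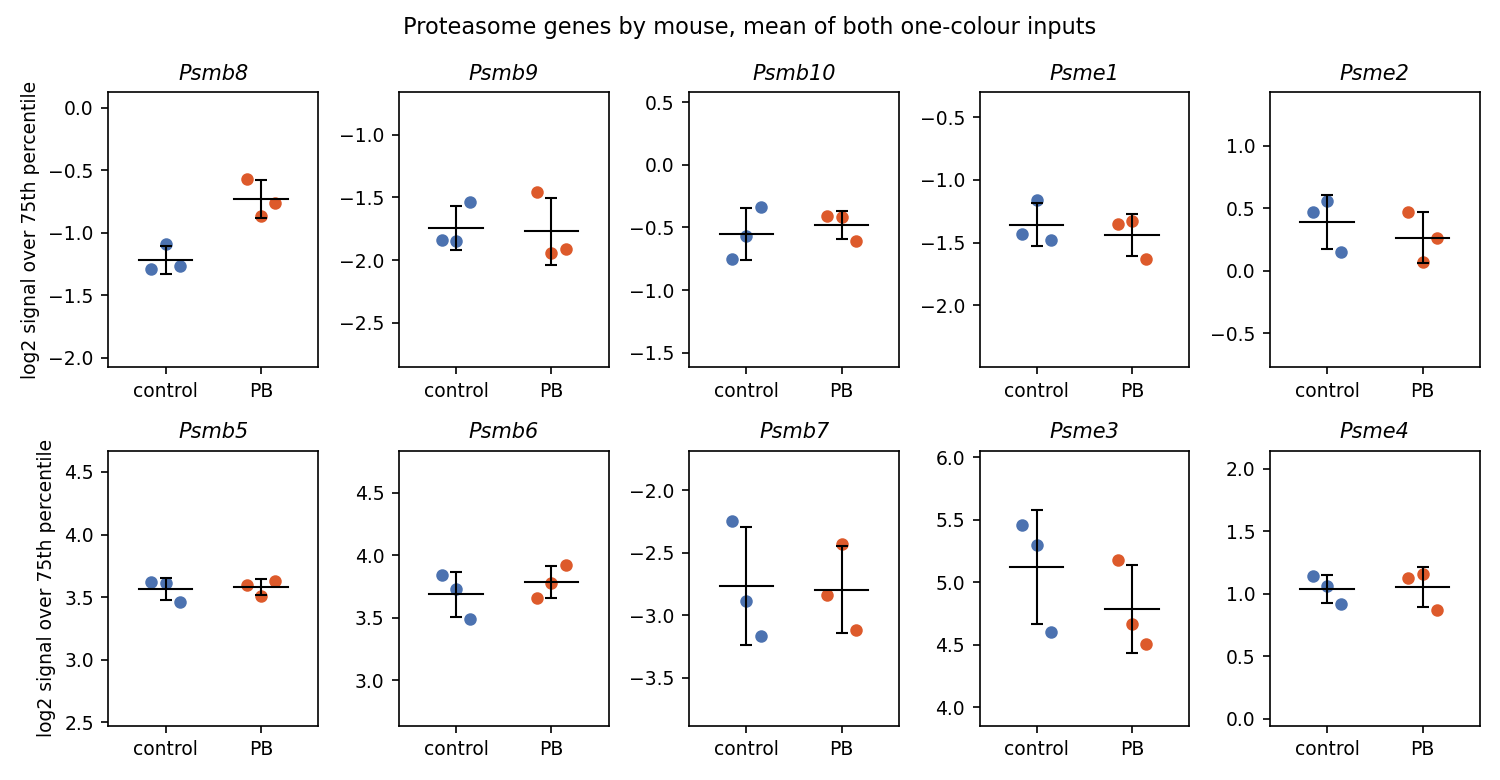
Log2 signal over the array's 75th percentile of 10 proteasome genes in each mouse (points, mean of the 1X and 1.5X one-colour array), with the group mean and SD as black lines; every panel spans the same log2 range. Psmb8 is the one gene of the 10 whose exposed mice (-0.87 to -0.57) all lie above the controls (-1.29 to -1.09).

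Whether an immunoproteasome subunit gained on the constitutive subunit it replaces was tested within each mouse, as the log2 level of one probe minus the other. Only the change of this value between groups can be read, not its size, since it sets one probe against another. For Psmb8 minus Psmb5 the value was -4.78 ± 0.12 (SD, n = 3) in controls and -4.31 ± 0.13 in exposed mice, and the groups did not overlap. The difference of 0.47 gave p = 0.1 in a two-sided exact permutation test, which is the smallest p that 3 against 3 mice allow (adjusted over the 3 pairs, 0.3). The other pairs overlapped. Psmb9 minus Psmb6 differed by -0.13 (exact p = 0.5, adjusted 0.75) and Psmb10 minus Psmb7 by 0.10 (exact p = 0.8, adjusted 0.8). Psmb5 has a second probe, whose difference over both inputs was 0.25, against 0.02 for the probe used here. Psmb8 was not tested against that probe alone, so the gain of Psmb8 on Psmb5 depends on the probe chosen.

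Markers of the cells that carry most immunoproteasomes are given beside Psmb8. Of 13 genes of Kupffer cells, macrophages and dendritic cells 8 were tested over both inputs and 7 had a difference above 0 (median 0.27). Marco, Vsig4 and Lyz2 were not tested there, being above background on 9, 10 and 10 of 12 arrays. At 1X, where they were, their differences were -0.17, -0.19 and -0.55, and 7 of 11 genes of the list were above 0 (median 0.13). Of the 13 genes 12 have a probe, and a sum gives most weight to the brightest, here Cd74 and Csf1r. The summed level of the 12 over both inputs was 6.78 to 7.71 times the array's 75th percentile in controls. In exposed mice the sum was 8.09 to 10.1, without overlap. Of the 8 genes tested over both inputs 1 passed, against 0.749% of all genes: Mpeg1, a pore-forming protein of macrophages. Mpeg1 rose by 0.95 ± 0.15 (SE; limma adjusted p = 0.0455). It also rose in the two-colour 1X set, by 0.52 ± 0.09 (SE; adjusted p = 0.0163). There 6 of the 7 genes of the list tested were above 0. An unadjusted p under 0.05 was found for 4, against 24.7% of all genes, and 1 passed, against 6.16%. Over both one-colour inputs C1qb had a difference of 0.40, Adgre1 of 0.03 and C1qc of -0.35, and none of these 3 passed. The groups did not overlap for 3 of the 8 genes tested, against 19% of all genes. Mpeg1 and Cd74 were higher in every exposed mouse than in any control. C1qc was lower, at -2.64, -2.65 and -2.43 in controls and -2.82, -2.77 and -3.20 in exposed mice. Itgax was above background on no array. Of 16 genes of T, B and NK cells 3 were tested, among them Ccl5 (0.79, adjusted p = 0.362), Nkg7 (0.20) and Ptprc (-0.05), and none passed. Cd3d, Cd3g, Cd8a, Cd2, Ms4a1 and Klrb1c were above background on no one-colour array. The summed level of this list was 0.866 to 1.16 in controls and 1.01 to 1.46 in exposed mice. Of 7 neutrophil genes 2 were tested, S100a9 and Csf3r (0.04). S100a9 entered through the exposed mice, with 6 of 6 arrays above background against 2 of 6 in controls, and did not pass (adjusted p = 0.232). Neutrophil sums were 5 to 5.62 in controls and 5.34 to 5.73 in exposed mice. They came mostly from Csf3r, the brightest probe of the list. At one-colour 1X 4 neutrophil genes were tested, with 4 above 0 and 2 at an unadjusted p under 0.05 (8.59% of all genes). Of the 4, S100a9 and Retnlg were not above background on every array. Elane was, with a difference of 0.86 ± 0.24 (SE; limma adjusted p = 0.336), and none passed. At 1.5X 2 were tested, 1 above and 1 below 0. The part of these cells in the Psmb8 values was not tested.

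Among the constitutive core genes the largest negative difference was that of Psmb1, a non-catalytic beta subunit. Its levels were -1.71, -1.86 and -1.71 in controls and -1.83, -2.81 and -2.57 in exposed mice. The first exposed mouse lay among the controls and the other two below them. The difference was -0.64 ± 0.25 (SE; adjusted p = 0.337). Without that mouse it was -0.93, with an adjusted p of 0.0658, without the second -0.44 (0.587) and without the third -0.56 (0.601). Psma6, an alpha subunit, was lower in every exposed mouse (-2.06 to -1.93) than in any control (-1.90, -1.54 and -1.47), with a difference of -0.36 ± 0.16 (SE; adjusted p = 0.388). Psma7, another alpha subunit, went the other way by 0.37 ± 0.20 (SE; adjusted p = 0.476), from -3.56 to -3.12 in controls and from -3.14 to -2.62 in exposed mice, with overlap. The other 10 core genes tested had differences between -0.17 (Psmb3) and 0.10 (Psmb6). Psma1 was not tested over both inputs, as it was above background on 5 of 12 arrays.

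In the 19S cap 5 of the 6 ATPases and 7 of the 10 non-ATPases tested had a difference above 0, none past the threshold. Psmd11 (RPN6), a scaffold that clamps the cap onto the core, was higher in every exposed mouse (1.41, 1.57 and 1.42) than in any control (1.22, 1.33 and 0.93). Its difference was 0.31 ± 0.16 (SE; adjusted p = 0.466). Psmd12 (RPN5), a scaffold subunit of the lid, likewise did not overlap, at -0.13, -0.09 and 0.19 in controls and 0.21, 0.30 and 0.33 in exposed mice (difference 0.29 ± 0.15, SE; adjusted p = 0.459). A second, dimmer Psmd12 probe gave a difference of 0.04. Psmc2 and Psmd4 were the other cap genes without overlap, with differences of 0.18 and 0.11. That made 4 of the 16 cap genes tested, against 19% of all genes. At the other end was Psmd8 (RPN12), a lid subunit. It measured -2.93, -2.16 and -2.84 in controls and -2.68, -2.73 and -3.65 in exposed mice, a difference of -0.38 ± 0.32 (SE; adjusted p = 0.660) that rested on the third exposed mouse. That mouse measured -2.16 at 1X and -5.14 at 1.5X. Psmd8 was above background on 11 of 12 arrays, so not throughout both groups. Psmd14 (RPN11), the deubiquitinase of the lid, had a difference of 0.23 ± 0.23 (SE) and Psmd4 (RPN10), a ubiquitin receptor, of 0.11 ± 0.13. Psmd2 (RPN1), the base subunit that docks ubiquitin carriers, had one of -0.25 ± 0.35.

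Of the 4 activators 3 had a difference below 0 over both inputs and none passed. Psme1 and Psme2 encode the interferon-induced PA28 ring. Psme1 levels were -1.43, -1.16 and -1.48 in controls and -1.35, -1.33 and -1.63 in exposed mice, with a difference of -0.08 ± 0.16 (SE; adjusted p = 0.870). Psme2 levels were 0.47, 0.56 and 0.15 in controls and 0.47, 0.07 and 0.26 in exposed mice, with a difference of -0.12 ± 0.18 (SE; adjusted p = 0.805). The signs were not stable. A second Psme2 probe gave 0.14, and Psme1 was at 0.05 in the 1X set. Psme3, the nuclear PA28 gamma, measured 5.46, 5.30 and 4.60 in controls and 5.18, 4.67 and 4.51 in exposed mice. The groups overlapped through the third control and the difference was -0.34 ± 0.27 (SE; adjusted p = 0.650). Psme4 (PA200), 1.14, 1.06 and 0.92 in controls and 1.13, 1.16 and 0.87 in exposed mice, differed by 0.02 ± 0.15 (SE; adjusted p = 0.972).

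Of the assembly factors and the inhibitor, the differences ran from -0.24 (Psmd10, gankyrin) to 0.10 (Psmd5), with all 6 groups overlapping. Psmf1, the inhibitor PI31, had one of -0.08 ± 0.21 (SE). Psmg3 was above background on 10 of 12 arrays but on all arrays of neither group, so it was not tested over both inputs.

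The classes were also read mouse by mouse. The median deviation of the 13 core genes from their own means was 0.05, 0.15 and -0.13 in controls and 0.12, -0.11 and -0.17 in exposed mice, so the spread within each group was wider than the gap between them. For the 16 cap genes it was 0.01, 0.04 and -0.23 in controls and 0.10, 0.11 and -0.06 in exposed mice. The first and second exposed mice lay above all controls there, and the third exposed mouse lay below the first and second controls. Mouse 3 of each group had the lowest core and cap values of its group.

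**Figure D4:**
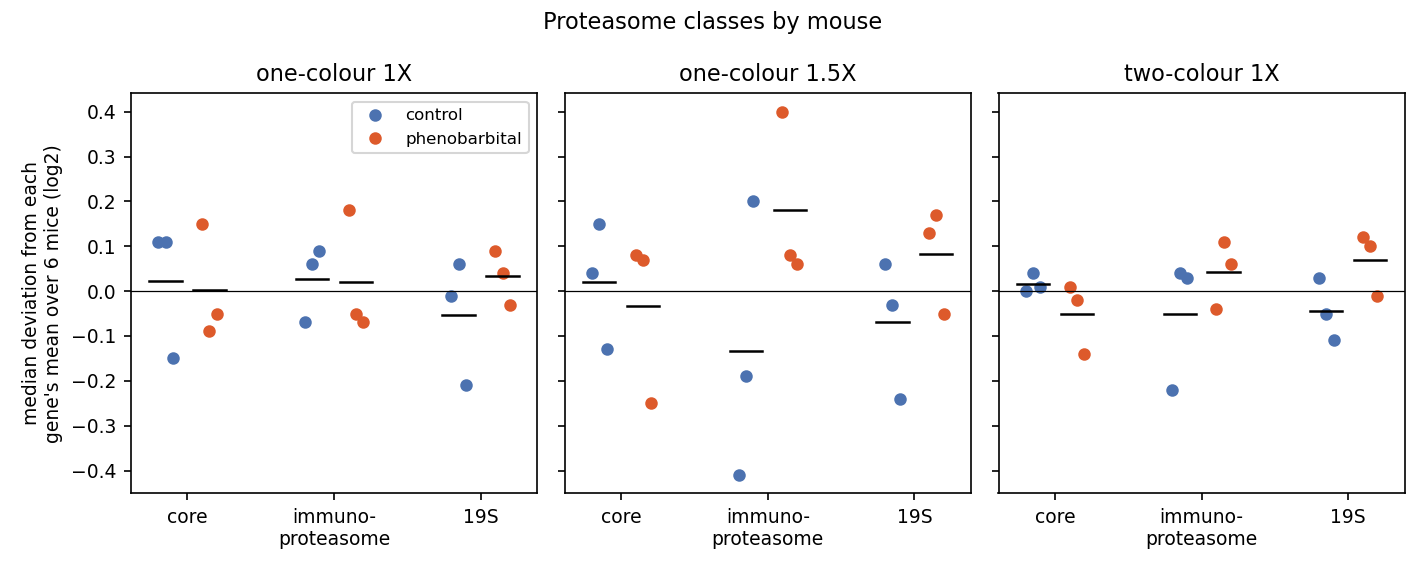
Median over the tested genes of a class of each mouse's log2 deviation from the gene's mean over all 6 mice, for core, immunoproteasome and 19S genes in 3 sets of arrays; points are mice and black lines group means. The groups overlap in each class and set drawn.

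The sets were then fitted one by one, on the same mice. In the one-colour 1X set 0 of 43 proteasome genes passed, against 0.161% of all genes, and 0 had an unadjusted p under 0.05, against 8.59%. The groups did not overlap for 1 gene, Psma7, against 14% of all genes. The highest difference was that of Psmg3 (0.51 ± 0.56, SE) and the lowest that of Psmb1 (-0.39 ± 0.25). Psmg3 entered through the exposed mice, with 3 of 3 arrays above background against 2 of 3 in controls. It spanned -5.20 to -3.10 in controls and -4.02 to -2.79 in exposed mice, and without the lowest control, the second, its difference was -0.13.

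In the one-colour 1.5X set 0 of 43 passed, against 0.237%. An unadjusted p under 0.05 was found for 3 (15% of all genes) and no overlap for 8 (20.8% of all genes). The 3 were Psmb8, Psme3 and Psmd12. Psmb8 was the highest, with -1.64, -1.53 and -1.39 in controls and -0.83, -1.15 and -0.85 in exposed mice (0.58 ± 0.17, SE; adjusted p = 0.216). Psme3 stood apart from its 1X values, with 4.85, 4.62 and 4.22 in controls and 4.08, 3.77 and 3.58 in exposed mice. All exposed mice were lower there, by -0.75 ± 0.22 (SE; adjusted p = 0.220). Psmb1 had the lowest difference (-0.90 ± 0.40), drawn out by the second exposed mouse at -3.69.

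In the two-colour 1X set values are mean log2 channel intensities of a mouse over both dyes. The median SD within groups was 0.108 for proteasome genes, against 0.226 over both one-colour inputs. For all genes it was 0.11, against 0.234. The genes tested and the processing of the values differ between the formats, so these SDs are not on the same scale. In the two-colour 1X set 0 of 33 proteasome genes passed while 6.16% of all 8261 genes did. An unadjusted p under 0.05 was found for 5, against 24.7% of all genes, and no overlap for 9, against 32.9%. The 5, named after their values were seen, were Psmb2, Psmd11, Psmb8, Psmc2 and Psmc4. Psmb2, a non-catalytic beta subunit, came closest to the threshold of any proteasome gene as fitted here, with 8.15, 8.13 and 8.20 in controls and 8.02, 7.84 and 7.75 in exposed mice (-0.29 ± 0.09, SE; adjusted p = 0.0963). Over both one-colour inputs its difference was -0.05 ± 0.18. Psmb8 was again the highest, at 7.41, 7.49 and 7.52 in controls and 7.59, 7.74 and 8.03 in exposed mice (0.31 ± 0.11, SE; adjusted p = 0.143). Array by array, its log2 ratio of phenobarbital over control was 0.49, 0.33, 0.45, 0.30 and 0.51 on arrays 1, 2, 3, 5 and 6, and -0.21 on array 7. Psmd11 was above 0 on all 6 arrays (0.11 to 0.44) and differed by 0.27 ± 0.09 (SE; adjusted p = 0.123), and Psmc2 and Psmc4 by 0.27 and 0.21. Psme3 was lowest, at 13.29, 13.11 and 12.55 in controls and 12.66, 13.01 and 12.38 in exposed mice (-0.30 ± 0.21, SE; adjusted p = 0.423). With the mouse numbers of the source names the set had 100 genes past the threshold in place of 509, and 0 proteasome genes.

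In the two-colour 1.5X set only 7 proteasome genes could be tested and 0 passed, as did 0% of all 1665 genes. None had an unadjusted p under 0.05 (1.74% of all genes) and none lacked overlap (3.66%). The highest difference was that of Psmb6 (0.27 ± 0.22, SE) and the lowest that of Psmb3 (-0.07 ± 0.17). Psme3 varied most, from 9.99 to 12.30 in controls and from 10.63 to 12.39 in exposed mice, and its ratio on single arrays from -3.03 to 2.57. The ratio was above 0 on 4 of 4 arrays with phenobarbital in Cy5 and below 0 on 3 of 4 with it in Cy3. The part of the dye was not tested. Psmb8 could not be tested in this set, as no Cy5 channel showed it above background. Its ratio was above 0 on 4 of 8 arrays and below 0 on 3, with a median of 0.02.

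**Figure D5:**
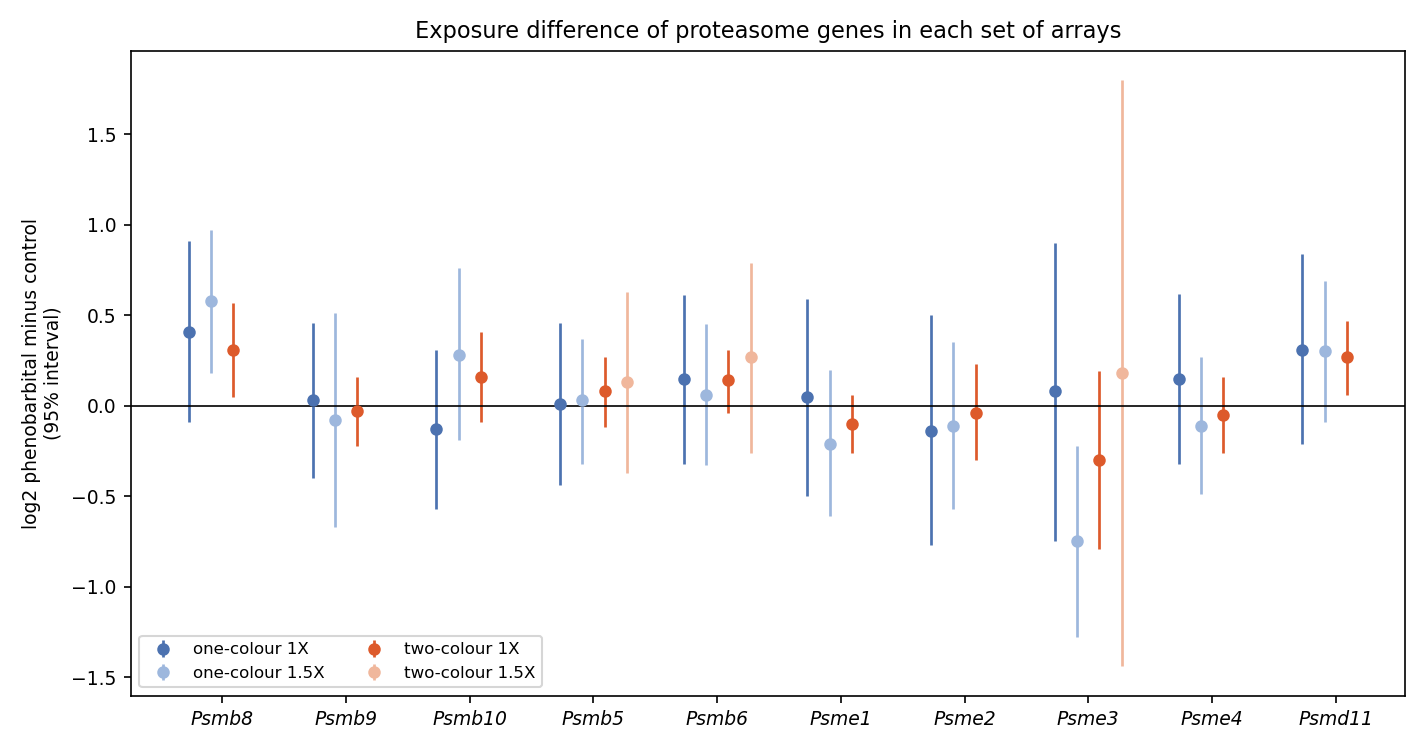
Log2 difference, phenobarbital minus control, of 10 proteasome genes in each of the 4 sets of arrays (point) with its 95% interval from limma (line); the sets share the same 6 mice, and no point is drawn where a gene was not tested. Psmb8 lies at 0.41, 0.58 and 0.31 in the 3 sets where it was tested, and Psme3 between -0.75 and 0.18.

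Whether the exposure difference itself changed between sets was tested on differences within mice. Between the one-colour inputs 0 of 43 proteasome genes differed past the threshold, as did 0% of 12883 genes, and 1 had an unadjusted p under 0.05, against 5.71% of all genes. That gene was Psme3 (-0.83 ± 0.23 for 1.5X minus 1X, SE; limma adjusted p = 0.754). Between the two-colour and one-colour formats at 1X, 0 of 33 differed past the threshold, against 0.0242% of 8253 genes. There too 1 had an unadjusted p under 0.05, against 4.8% of all genes: Psmb2 (-0.42 ± 0.17 for two-colour minus one-colour, SE; adjusted p = 0.997).

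For 11 of the 48 genes the array holds several probes. Over both one-colour inputs 0 of the further probes differed from the one used by more than 0.5 in their log2 difference. The sign was less stable: for 7 of the 11 genes the further probe had the opposite sign (Psma4, Psmc1, Psmc3, Psmd10, Psme2, Psme4 and Psmg1), and 6 of these 7 further probes passed the filter on dim probes. In the 19S cap only Psmc1, Psmc2, Psmc3 and Psmd12 have a further probe. Psmc1 (0.20 and -0.14) and Psmc3 (0.17 and -0.17) lay below 0 by that probe. Psmc2 (0.18 and 0.15) and Psmd12 (0.29 and 0.04) stayed above 0. The other cap genes could not be checked in this way. The second Psmb5 probe gave 0.25, against 0.02.

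The wider pathway was read from a list of genes that serve the proteasome. Of its 29 genes 22 were tested over both inputs, 14 with a difference above 0 (median 0.02) and 0 past the threshold or with an unadjusted p under 0.05. Nfe2l1 had a difference of -0.18 ± 0.19 (SE), and Pomp, the chaperone that completes new cores, of 0.01 ± 0.14. The highest were Ecpas (0.28 ± 0.14), a proteasome-binding scaffold, and Usp14 (0.20 ± 0.17), the deubiquitinase of the cap. The lowest were Sem1 (-0.21 ± 0.15), a small lid subunit, and Ube3a (-0.20 ± 0.15), a ubiquitin ligase. Of 20 genes of MHC class I antigen processing and interferon signalling 15 were tested, 7 above 0 (median -0.01) and 0 past the threshold or with an unadjusted p under 0.05. The highest were Irf1 (0.53 ± 0.31), an interferon-induced transcription factor, and Nlrc5 (0.31 ± 0.14; adjusted p = 0.378), the MHC class I transactivator. At 1.5X the groups did not overlap for 3 of the 15 genes tested, against 20.8% of all genes. Irf1 (0.53 ± 0.24; adjusted p = 0.358) and Nlrc5 (0.50 ± 0.16; adjusted p = 0.251) were higher in exposed mice. Ifngr1 (-0.32 ± 0.16), a chain of the interferon gamma receptor, was lower. At one-colour 1X the groups overlapped for Irf1 (0.53 ± 0.43) and Nlrc5 (0.12 ± 0.18). In the two-colour 1X set Irf1 was at 0.44 ± 0.12 (adjusted p = 0.0726), again without overlap, and Nlrc5 at 0.08 ± 0.07. There 3 of 13 genes of the list lacked overlap, against 32.9% of all genes. None of these passed. The lowest over both inputs were Ifngr1 (-0.38 ± 0.30) and Tap1 (-0.21 ± 0.16), the peptide transporter encoded between Psmb9 and Psmb8. B2m, the light chain of MHC class I, had a difference of -0.08 ± 0.14. Tap2, the partner of Tap1, was above background on no one-colour array.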

How the data were processed

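Per the file headers, the scans were read by Agilent Feature Extraction (version 11.0.1.1). Its deposited tables give spot intensity (the processed signal, not scaled between arrays, and median signals of spot and background), log10 ratios of Cy5 over Cy3 on two-colour arrays and spot flags, a unit of other. The authors' series matrix holds the one-colour processed signal as intensity and the two-colour log10 ratio. Against the scanner files the ratio ran as Cy5 over Cy3 on 8 of 16 arrays and as Cy3 over Cy5 on 8, which is phenobarbital over control on 14 of the 14 arrays with a settled dye. Median negative controls were 5.88 and 14.5 in the one-colour 1X and 1.5X sets. The build named in the headers differs from the GRCm38.p6 table used for names and promoters.

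Flagged spots were left out and replicate spots averaged. One-colour values were log2 processed signals minus the 75th percentile of each array, taken over the probes called above background throughout the set. Channel values of two-colour arrays came from median signals with normexp (offset 50), loess (span 0.3) and Aquantile. Both dyes were averaged for each mouse. The brightest probe of each gene was used. A gene entered a test if every array of 1 group or of both called it above background. Differences were tested with limma 3.58.1 (R 4.3.3), and p-values were adjusted by Benjamini-Hochberg across every gene in the test. The code was checked on simulated data; figures used matplotlib 3.10.9. Arrays 4 and 8 of the two-colour 1X set were left out. Same-numbered mice of both groups are different animals. Their deviations over the one-colour arrays correlated at 0.05, -0.12 and 0.28, against -0.27 to 0.25 for other pairs, and the number was not taken to pair them. Each two-colour array held a control and an exposed mouse, and by the description mouse 3 of each group shared their arrays. The two-colour fits treat mice as independent and do not model shared arrays.

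The proteasome genes, classes, 2 pathway lists and 5 marker lists were chosen with earlier results of these data known. The genes named were the catalytic subunits, the activators, the 3 highest and 3 lowest over both inputs, the highest and lowest of each set, and the 2 highest and 2 lowest of each list. Psmd12, Psmb2, Psmc2, Psmc4, Psmd14, Psmd4, Psmd2, Psmd10, Psmd5, Psmf1, Nfe2l1, Pomp and B2m were chosen after their values were seen. So were Marco, Vsig4, Lyz2, Cd74, Csf1r, Elane and Retnlg, and the genes given for their further probes. Of the hepatocyte list 9 genes were tested over both inputs and 9 lay below 0 (median -0.12). Of these 0 passed the threshold and 1 had an unadjusted p under 0.05, against 13.5% of all genes. Of the pancreas list 9 were tested and 9 lay below 0 (median -0.97), with 0 past the threshold and 0 with an unadjusted p under 0.05. In the two-colour 1X set 8 of the 9 hepatocyte genes tested lay below 0. There 2 passed, against 6.16% of all genes: Alb at -0.39 and Ttr at -0.62.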

Additional observations from a re-analysis of the deposited data

How the results depend on the processing

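In all 60 alternative fits 0 proteasome genes passed the threshold (limma). The smallest adjusted p was 0.0658 over both inputs (Psmb1, without exposed mouse 1), 0.459 at one-colour 1X, 0.115 at 1.5X, 0.0619 in the two-colour 1X set (Psmc3, without exposed mouse 3) and 0.696 in the two-colour 1.5X set. Psmb8 over both inputs stayed between 0.28 (unscaled values) and 0.56. The mouse numbers were not taken to pair the mice. With the replicate number as a block, 0 proteasome genes passed and the smallest adjusted p were 0.292, 0.633, 0.190, 0.0746 and 0.999, in the same order of sets.

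Without scaling between arrays the median of all genes moved to -0.23 over both inputs, -0.28 at 1X and -0.16 at 1.5X. Over both inputs the medians were then -0.25 for core, -0.14 for immunoproteasome and -0.09 for 19S genes, and at 1X -0.28, -0.26 and -0.19. Psmb10 (-0.14), Psmb5 (-0.20), Psmb6 (-0.11), Psme4 (-0.20), Psmc2 (-0.04) and Psmc4 (-0.14) changed sign over both inputs. At 1X Psmb9 (-0.26), Psmb5 (-0.28), Psmb6 (-0.15), Psmb7 (-0.12), Psme1 (-0.25), Psme3 (-0.22), Psme4 (-0.15), Psmd12 (-0.08), Psmb2 (-0.16), Psmc2 (-0.26) and Psmc4 (-0.18) did, and at 1.5X Psmb5 (-0.11), Psmb6 (-0.08) and Psmc4 (-0.10). With normexp and quantile normalization the sign changed for Psmb5 (-0.04) over both inputs, for Psmb9 (-0.01) and Psmb5 (-0.02) at 1X and for Psmb5 (-0.05) and Psmb6 (-0.01) at 1.5X. With the percentile over all probes it changed for Psmb5 at 1X (-0.01) and Psmb3 at 1.5X (0.01). With the mean of a gene's probes it changed for Psme2 (0.01) and Psme4 (-0.07) over both inputs and Psme2 (0.05) at 1X. With the slide row as a block it changed for Psme1 (-0.09) and Psme3 (-0.08) at 1X. With Agilent's processed signals two-colour 1X Psmb3 was -0.01, the core median -0.06, and the 19S median of the two-colour 1.5X set 0.29. Apart from the missing scaling, the cause was not tested.

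Leaving out 1 mouse at a time changed the sign of small differences. Over both inputs the ranges were -0.02 to 0.18 for Psmb10, -0.22 to 0.24 for Psmb7, -0.14 to 0.02 for Psme1, -0.18 to 0.07 for Psmb2, -0.18 to 0.08 for Psmb9, -0.03 to 0.06 for Psmb5, -0.04 to 0.11 for Psme4 and -0.12 to 0.25 for Psmc4. At 1X they were -0.13 to 0.92 for Psmg3, -0.05 to 0.12 for Psmb5, -0.11 to 0.20 for Psme1, -0.27 to 0.28 for Psme3, -0.03 to 0.08 for Psmc2, -0.16 to 0.25 for Psmc4, -0.05 to 0.09 for Psmb9, -0.11 to 0.41 for Psmb7 and -0.30 to 0.12 for Psme2. At 1.5X they were -0.55 to 0.06 for Psmb7, -0.26 to 0.15 for Psmg3, -0.22 to 0.03 for Psme2, -0.06 to 0.04 for Psmb3, -0.31 to 0.07 for Psmb9, -0.01 to 0.06 for Psmb5, -0.03 to 0.14 for Psmb6, -0.18 to 0.26 for Psmc4 and -0.76 to 0.12 for Psmd8. In the two-colour 1X set they were -0.09 to 0.02 for Psme4, -0.13 to 0.07 for Psme2, -0.09 to 0.01 for Psmb9 and 0.00 to 0.06 for Psmb3, and in the two-colour 1.5X set -0.43 to 0.73 for Psme3.

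The count of all genes past the threshold depended on the setting. Over both inputs it was 96, against 145 with quantile normalization, 62 unscaled, 28 with no filter on dim probes, 37 with the replicate block and 10 to 101 without 1 mouse. At 1X it was 30, against 18 unscaled, 7 with no filter, 3 with the block, 11 with the slide row and 5 to 16 without 1 mouse. At 1.5X it was 31, against 160 with quantile normalization, 7 with no filter, 4 with the block and 15 with the slide row, and 6 to 142 without 1 mouse. In the two-colour 1X set it was 509, against 100 with the mouse numbers of the source names and 213 to 647 without 1 mouse.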

Other observations

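The 2 two-colour 1X arrays without a settled dye direction were read as Cy5 over Cy3. On array 4 the median log2 ratio of 29 proteasome genes was -0.10 and that of Psmb8 0.06. On array 8 the median of 30 was -0.34 and Psmb8 was at -0.65. The deposited ratio ran as Cy5 over Cy3 on array 4 and as Cy3 over Cy5 on array 8, as on arrays with phenobarbital in Cy5 and in Cy3. That is the direction of the channel labels of these arrays and the opposite of their descriptions. Read that way, phenobarbital over control, the Psmb8 ratio of array 8 is above 0 and the median of its proteasome genes too. On array 4, read the same way, Psmb8 stays at 0.06 and the median of the proteasome genes at -0.10, below 0.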
